A study of Homo sapiens with 8 samples.

Results

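A549 is a human lung adenocarcinoma cell line, and the state described here is that of A549 cells given IFN-γ and then the kinase inhibitor AX-0085, compared with untreated A549 cells. The members were chosen by their sample labels, and they are 4 of the 8 RNA-seq libraries of the series, 2 doubly treated and 2 untreated. The doubly treated cells received IFN-γ for 24 h (20 ng in the labels, with no volume given) and AX-0085 at 0.5 μM was then added, with RNA taken after another 24 h. Untreated cells received neither agent, and no vehicle is named for them. The other 4 libraries, from cells given IFN-γ alone and from cells given AX-0085 alone, were used to share the estimate of the spread and to place the doubly treated levels. All 8 libraries come from this single established line in culture. Nothing in the labels says whether the 2 libraries of a group came from separate cultures, so the p-values measure the spread between these libraries, which may be technical.

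IFN-γ binds a receptor on the cell surface that activates the kinases JAK1 and JAK2. The signal reaches genes with GAS elements, and further factors of the IRF family act through ISRE elements. The targets include guanylate-binding proteins, antiviral effectors, MHC class I molecules and PD-L1, the checkpoint ligand encoded by CD274. AX-0085 was selected by the study as an inhibitor of PD-L1 induction by IFN-γ. The comparison of the doubly treated with the untreated state asks how far cells carrying both agents stood from the basal state, in the interferon programme and in all other expressed genes.

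Sequence upstream of the start site is shown first for genes of the programmes that the results turn on, since each programme has a short DNA element known from textbooks. The sequences are those of RefSeq on GRCh38.p14, written 5′ to 3′ on the strand of the gene, with the matched letters in capitals. Matches were sought on both strands in the 250 bases before the start. The forms searched were TTCNNNGAA for GAS, GAAANNGAA for ISRE, TTTGAA for the CHR element of mitotic genes, TTTCCCGC, TTTGGCGC, TTTCGCGC or TTTGCCGC for E2F, and TGATGNAA for the element bound by ATF4, the factor of the integrated stress response. TTTGAA can lie inside a match to TTCNNNGAA, so that 1 stretch may count for both. Where a transcript is annotated over the element, no more than 30 bases are given. The interferon-responsive genes ISG15, B2M and CD274 carried ISRE matches, and CD274 also a GAS match at its 3′ end.
ISG15, chr1:1013359-1013429, plus strand: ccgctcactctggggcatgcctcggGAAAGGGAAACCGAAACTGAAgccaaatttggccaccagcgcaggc
B2M, chr15:44711366-44711394, plus strand: actctaaGAAAAGGAAACTGAAaacggga
CD274, chr9:5450310-5450450, plus strand: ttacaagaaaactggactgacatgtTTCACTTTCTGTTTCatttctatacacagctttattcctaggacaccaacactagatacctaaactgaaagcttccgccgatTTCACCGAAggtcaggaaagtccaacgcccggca
For the stress and amino acid genes CHAC1 and AARS1, which rose, the capitals mark the ATF4 element on the opposite strand.
CHAC1, chr15:40953251-40953280, plus strand: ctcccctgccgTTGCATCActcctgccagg
AARS1, chr16:70289675-70289704, minus strand: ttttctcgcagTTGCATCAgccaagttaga
For the mitotic genes CDC20 and PLK1, which fell, the capitals mark CHR matches.
CDC20, chr1:43358778-43358946, plus strand: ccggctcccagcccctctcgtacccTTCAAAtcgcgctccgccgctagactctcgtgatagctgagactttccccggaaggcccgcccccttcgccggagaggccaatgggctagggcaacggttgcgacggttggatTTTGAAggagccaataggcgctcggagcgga
PLK1, chr16:23678848-23678877, plus strand: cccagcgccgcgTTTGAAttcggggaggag
The licensing factor CDT1, which was not called (-0.26 on the log2 scale), also held an E2F match. For the replication clamp PCNA and the transcription factor E2F1, which fell, the capitals mark E2F matches.
PCNA, chr20:5126649-5126706, minus strand: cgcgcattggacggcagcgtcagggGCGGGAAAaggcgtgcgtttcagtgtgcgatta
E2F1, chr20:33686386-33686443, minus strand: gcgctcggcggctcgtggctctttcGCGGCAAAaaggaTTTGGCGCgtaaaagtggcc

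Over all 35116 RefSeq windows, 6.88% held an ISRE match, 6.57% a GAS match, 13.3% a CHR match, 2.79% an E2F match and 3.14% an ATF4 match. Of the 15066 genes tested below, 10669 had a window with the same symbol, and over the windows of those genes the shares were 5.54%, 5.31%, 9.25%, 3.97% and 1.76% in the same order. CHR matches stood in 42.6% of the 61 windows of the mitosis list. E2F matches stood in 27.6% of the 58 windows of the DNA replication list. Among the antiviral effectors, 55.3% of 38 windows held an ISRE match. The ATF4 element was found in 15.4% of 26 windows of the integrated stress response list. In the IFN-γ signalling and interferon transcription factor lists, 0 of 20 and 0 of 9 windows held an ISRE match. A GAS match was found in 2 windows of each of these lists (10% and 22.2%). CHR matches stood in 13.1% of the windows of genes that fell and 9.23% of those that rose, and ATF4 matches in 1.24% and 3.40%. For ISRE the shares were 5.07% and 7.58%, for GAS 5.26% and 5.54%, and for E2F 5.07% and 3.60%. A match is a description of the letters and does not show that a factor bound there.

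Total counts in the 4 libraries ranged from 22230752 to 29978251, and a floor of 3 counts lay from 0.0959 to 0.135 CPM, a unit that divides counts by library size, here with TMM factors. Floors of this kind cover counting error only. Mitochondrial transcripts took between 2.72% and 3.55% of the counts of these libraries. The epithelial marker list, with abundant keratins, summed to 8828 and 9558 CPM in untreated and 7313 and 7230.3 CPM in doubly treated cells. The marker lists of T and NK cells, B cells, myeloid cells and endothelium each summed to at most 0.733 CPM in the 4 libraries, with CD3D, MS4A1, CD68 and AIF1 at 0 in all 4. The fibroblast list, mostly COL1A1, summed to 9.53 and 11.0 CPM in untreated and 6.94 and 8.45 CPM in doubly treated cells. The alveolar and lung adenocarcinoma factor NKX2-1 and the surfactant gene SFTPA1 were listed at 0. A listed 0 cannot be read as absence here, because genes that dividing cells use, such as SMC4, CDK2 and RPL15, and the interferon targets IRF1, TAP1 and IFIT1 were also at 0 in all 8 libraries. In bulk RNA, fewer cells that express a gene and less of its RNA per cell cannot be told apart.

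Against untreated cells, 1132 genes were higher and 1090 lower with both agents out of 15066 tested (p from edgeR's quasi-likelihood test, under 0.05 after Benjamini-Hochberg adjustment, and over 2-fold). That is 14.7% of the genes tested, with 7.51% higher and 7.23% lower. These shares are the background for every count of called genes below, but not for counts by p alone. Of the genes called, 255 rose and 202 fell more than 4-fold, and 29 rose and 12 fell more than 16-fold. With the adjusted p alone, 4234 genes were higher and 4339 lower, a much wider background that applies to counts without the fold threshold. With a test against a 2-fold change itself, 448 were higher and 470 lower. The median log2 change over all genes tested was 0.009, a value that the TMM scaling holds near 0. Protein-coding genes made up 797 of the genes that rose and 896 of those that fell, and long non-coding RNAs 230 and 142. With 2 libraries against 2, an exact permutation test of a single gene cannot go below p = 0.333 (two-sided), and so the model fitted across all genes was used. In all but 1 of the called genes, the 2 doubly treated libraries lay wholly on one side of the 2 untreated libraries. A call favours such separation, so this adds no support to the calls. The share that separated among all genes tested was not counted.

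**Figure D1:**
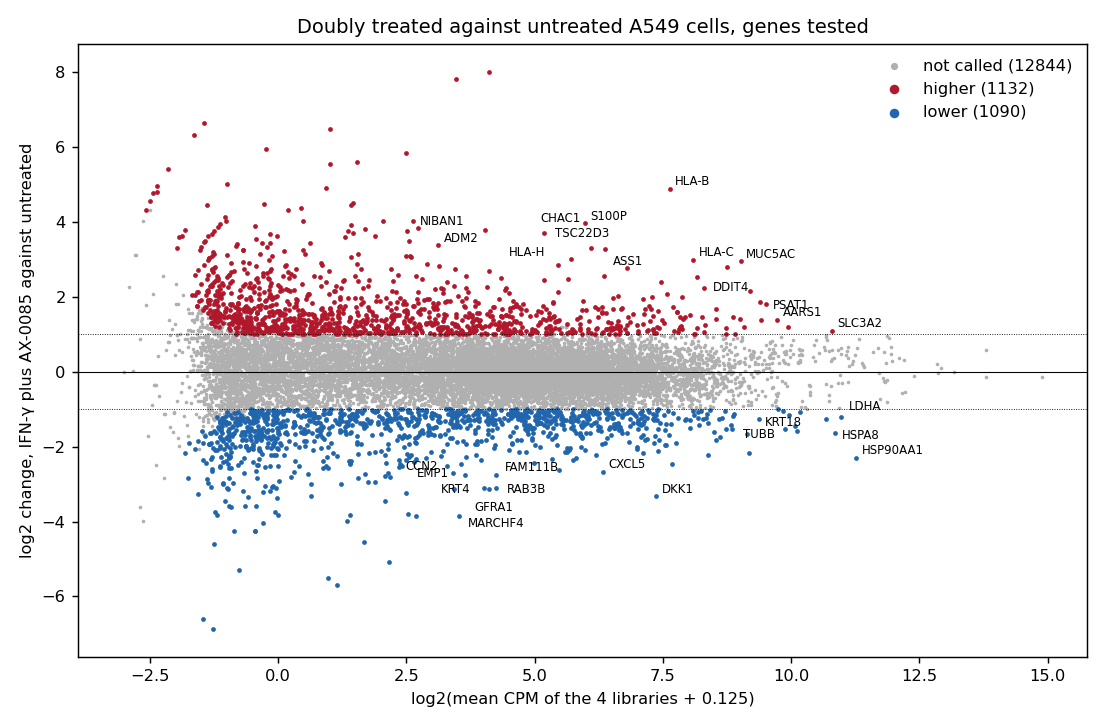
Log2 change of each of the 15066 genes tested, doubly treated against untreated (vertical axis), against the log2 of the mean CPM of the 4 libraries plus 0.125 (horizontal axis). Red points are the 1132 genes called higher and blue points the 1090 called lower, dotted lines mark 2-fold changes, and the genes with the largest changes by ratio or by CPM are named. Called genes lie on both sides of 0 from low to high levels, with HLA-B standing highest of the genes named in the plot and HSP90AA1 rightmost of those that fell.

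Taking genes whose mean log2 CPM reached 2 and whose groups did not overlap, the largest rise was that of HLA-B, a classical MHC class I heavy chain (chr6:31353872-31367067, GRCh38). It stood at 12.5 and 13.4 CPM in untreated and 388 and 379.9 CPM in doubly treated cells, a log2 change of 4.89 (standard error 0.08, adjusted p = 3.13e-13). HLA-B shares 47.3% of its exon bases with other annotated genes, and class I genes are similar in sequence, so reads may be split between them. HLA-C rose by 2.99, and the class I pseudogene HLA-H by 3.01. S100P, a calcium-binding protein, rose from 7.31 and 7.86 to 123 and 115 CPM, by 3.97. NIBAN1, a stress-induced protein, rose from 2.45 and 1.91 to 30.3 and 30.3 CPM, by 3.78. The remaining genes of the 10 largest rises came from metabolism, hormone response and secretion. CHAC1, which degrades glutathione, rose by 3.71, and ADM2, a peptide of the adrenomedullin family, by 3.38. TSC22D3, known as a glucocorticoid-induced leucine zipper protein, rose by 3.32 and ASS1, an enzyme of arginine synthesis, by 3.28. MUC5AC, a gel-forming airway mucin, rose from 143 and 94.4 to 969 and 865 CPM, by 2.95.

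The largest fall under the same rule was that of MARCHF4, a membrane-bound ubiquitin ligase, from 20.3 and 22.4 to 1.34 and 1.66 CPM, a log2 change of -3.84 (standard error 0.19, adjusted p = 2.77e-09). DKK1, a secreted antagonist of Wnt signalling (chr10:52314281-52318042), went from 318 and 282 to 30.1 and 29.7 CPM, a change of -3.33 (standard error 0.07, adjusted p = 5.99e-12). That both doubly treated values lay below both untreated values was required by the rule and adds no support for these genes. GFRA1, a receptor for the neurotrophic factor GDNF, changed by -3.13, and RAB3B, a small GTPase of vesicle exocytosis, by -3.10. KRT4, a keratin of stratified epithelium, went from 29.4 and 28.2 to 3.13 and 3.64 CPM, by -3.10. FAM111B changed by -2.75, the epithelial membrane protein EMP1 by -2.75, the matricellular protein CCN2 by -2.71 and CXCL5, a chemokine that attracts neutrophils, by -2.68. The list also held a long non-coding RNA without a symbol, ENSG00000279501, at -3.14.

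By absolute level, the 5 largest rises in CPM were those of SLC3A2, PSAT1, MUC5AC, DDIT4 and AARS1. SLC3A2, the heavy chain of amino acid exchangers, stood at 1056 and 1217 CPM without treatment and 2437 and 2416 with both agents, and PSAT1, an enzyme of serine synthesis, at 321 and 324 and 1133 and 1129. All but MUC5AC belong to the stress, amino acid and tRNA synthetase lists described below. The 5 largest falls were those of HSP90AA1, HSPA8, LDHA, KRT18 and TUBB. HSP90AA1, the inducible cytosolic HSP90 chaperone (chr14:102080742-102139699), fell from 4006 and 4227 to 826 and 841 CPM, a log2 change of -2.30 (standard error 0.07, adjusted p = 8.08e-11). The chaperone HSPA8, with 15.1% of its exon bases inside other genes, changed by -1.64, the lactate dehydrogenase LDHA by -1.21, the simple epithelial keratin KRT18 by -1.26 and the β-tubulin TUBB by -1.58.

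A total of 37 lists with 1008 different genes were then examined, of which 851 genes were tested. Of the others, 96 were at 0 in all 8 libraries and 61 had too few counts. In the lists together, 115 genes rose and 161 fell. The lists with the highest medians were those of interferon targets, and those with the lowest were of DNA replication and mitosis.

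**Figure D2:**
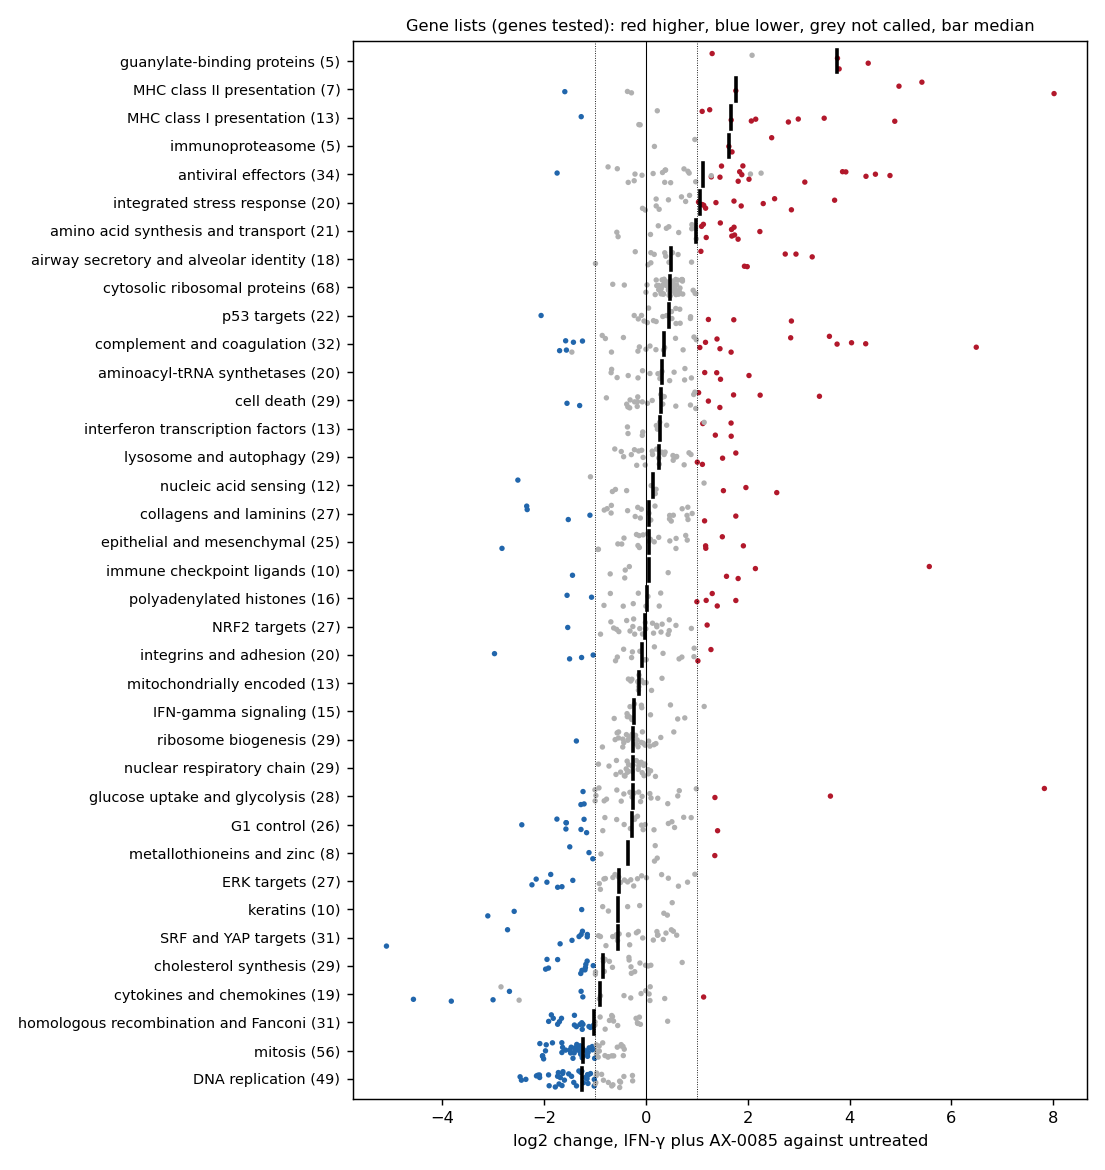
Log2 change, doubly treated against untreated (horizontal axis), of each gene tested in the 37 gene lists, sorted by median, with the number of genes tested in brackets. Red points were called higher, blue points lower and grey points neither, black bars are list medians and dotted lines mark 2-fold changes. Guanylate-binding proteins stand highest with a median of 3.76, and DNA replication stands lowest with -1.26.

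In the core of the pathway, no gene passed both thresholds. SOCS3, a feedback inhibitor of JAK signalling, stood at 41.0 ± 4.23 CPM (SD, n = 2) in untreated and 33.9 and 33.9 CPM in doubly treated cells, with both doubly treated libraries below both untreated ones. Its log2 change was -0.27 (standard error 0.09, adjusted p = 0.0170), while with IFN-γ alone it stood at 339.8 and 319 CPM. JAK2 was at 10.1 and 10.5 CPM and 9.50 and 10.0 CPM, with a change of -0.08 (standard error 0.12, adjusted p = 0.605). IRF9, with 3 and 1 counts in untreated and 7 and 2 in doubly treated cells, was near the limit of detection. STAT2, which acts in a complex with IRF9, had a change of 0.77. Of the 15 signalling genes tested, 0 were called in either direction by edgeR or DESeq2. At an unadjusted p under 0.05 (edgeR), 3 were higher and 8 lower, and the median change was -0.22. The adjusted p alone gave the same counts, against 4234 higher and 4339 lower of all 15066 genes tested. With IFN-γ alone and with AX-0085 alone the medians were 0.21 and -0.13 against the same untreated libraries.

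Some transcription factors induced by interferon remained above the basal level. Of 13 factors tested, 4 rose and 0 fell. NLRC5, the transactivator of MHC class I genes, rose from 3.08 and 3.67 to 10.6 and 10.8 CPM, a log2 change of 1.68 (standard error 0.11, adjusted p = 3.81e-08), against 87.7 and 88.4 CPM with IFN-γ alone. BATF2 rose by 1.67, SP140L by 1.37 and IRF8 by 1.12, and the call of IRF8 was lost without doubly treated replicate 1, at 0.85. CIITA, the transactivator of MHC class II genes, had 2 and 2 counts in untreated, 18 and 42 with IFN-γ alone and 3 and 0 in doubly treated cells, so that the untreated and doubly treated levels were at the limit of detection.

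Guanylate-binding proteins, GTPases that attack intracellular pathogens, stood between the basal and the IFN-γ level. GBP1 had 4 and 2 counts in untreated and 73 and 53 in doubly treated cells, a ratio of 21.5 (95% counting interval 9.60 to 59.7), and 337 and 323 CPM with IFN-γ alone against 2.33 and 2.38 CPM with both. GBP2 rose from 0.298 and 0.367 to 4.48 and 4.59 CPM, by 3.76, and GBP3 by 1.30. With AX-0085 alone GBP2 was at 2.03 and 1.24 CPM, the only member of the list called higher with that agent. In all, 4 of 5 members tested rose, the call of GBP4 resting on 0 and 1 counts against 13 and 4. The summed level of the family was 1.26 and 1.51 CPM in untreated, 467 and 452 CPM with IFN-γ and 9.69 and 9.26 CPM with both.

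Antiviral effectors block viral entry, replication or release. The list of these also held genes with other roles, such as WARS1, which is counted again with the tRNA synthetases below. Of 34 genes of the list tested, 14 rose and 1 fell. The median was 1.13, or 0.79 with the 3 genes without counts in 1 of the groups held at the smallest fold that their counts allow. BST2, a tether of budding virions, rose from 0.232 and 0.204 to 5.72 and 4.32 CPM, a log2 change of 4.51 (standard error 0.28, adjusted p = 2.55e-08). IFI27 rose by 3.93 and ISG15, a ubiquitin-like modifier, from 2.81 and 3.14 to 11.7 and 10.4 CPM, by 1.91. WARS1, the tryptophanyl-tRNA synthetase, rose from 37.8 and 40.5 to 155 and 163 CPM, by 2.03, and MX1 rose by 1.84. XAF1 and RSAD2, both counted among those that rose, had no count in untreated cells and only 4 and 1 and 3 and 4 counts in doubly treated cells. RSAD2 was at least 1.25-fold higher against a floor of 3 counts a library, no fold is given for XAF1, and leaving out single libraries ended both calls. HERC5, a ligase for ISG15, fell by 1.74 on the log2 scale. Other members lay near the basal level, with LAP3 at -0.34 and APOL1 at 0.49, against 2.28 and 3.37 with IFN-γ alone.

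**Figure D3:**
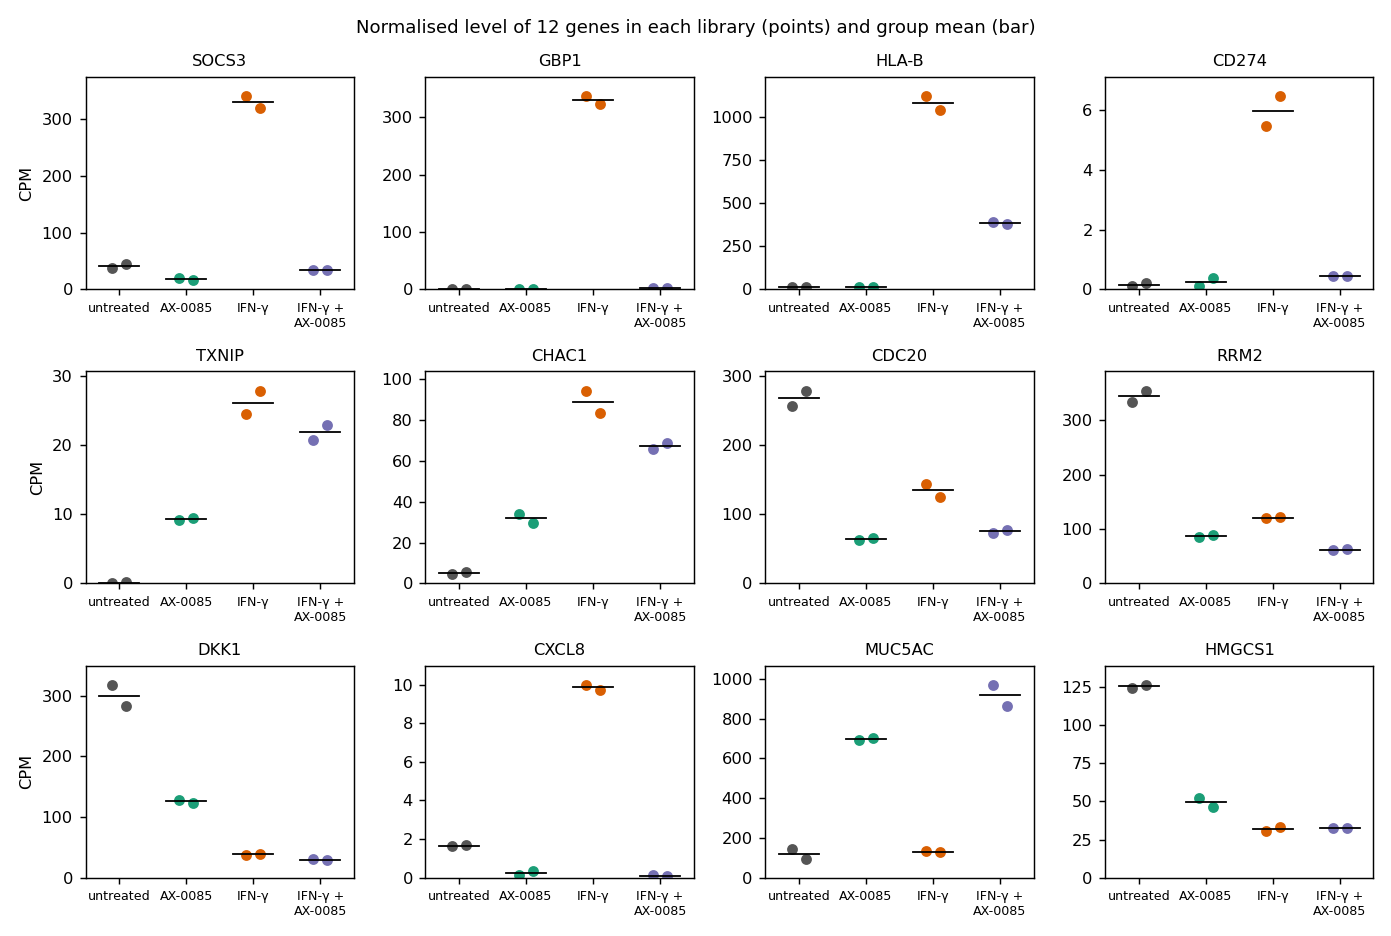
Level in CPM (vertical axes, linear from 0) of 12 genes in each library of the 4 groups (horizontal axes), with points for the 2 libraries of a group and bars for the group mean. In doubly treated cells SOCS3 lay at 33.9 and 33.9 CPM, below untreated and IFN-γ-treated cells, HLA-B lay at 388 and 379.9 CPM between untreated and IFN-γ-treated cells, and CDC20, RRM2, DKK1 and HMGCS1 also lay below untreated cells.

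MHC class I molecules show peptides from inside the cell to cytotoxic T cells. B2M, the invariant light chain, rose from 217 and 211 to 947 and 963 CPM, a log2 change of 2.16 (standard error 0.07, adjusted p = 9.19e-11). HLA-E rose by 2.07 and HLA-F, with 28.0% of its exon bases inside other genes, by 3.50. The summed class I level was 2548 and 2537 CPM in untreated and 4797 and 4850.2 CPM in doubly treated cells, against 9680.3 and 9172 CPM with IFN-γ alone. Of 13 genes tested, 9 rose. The 1 that fell was CALR, a chaperone of class I assembly in the endoplasmic reticulum, by 1.27 on the log2 scale. Against AX-0085 alone, HLA-B was higher by 5.08 and B2M by 1.94 (adjusted p = 2.42e-13 and 8.77e-10, edgeR quasi-likelihood test).

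The catalytic subunits of the immunoproteasome, which generates peptides for class I, all rose. PSMB8 stood at 14.9 and 15.9 and 85.6 and 84.9 CPM in untreated and doubly treated cells, a log2 change of 2.47 (standard error 0.09, adjusted p = 2.04e-10). PSMB9 rose by 1.69 and PSMB10, with 39.4% of its exon bases inside other genes, by 1.63. PSME2, a subunit of the activator of the proteasome, did not pass the test, at 102 and 112 and 124 and 115 CPM.

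The chains of MHC class II molecules were listed at 0 or few counts in both states, while CD74, the invariant chain, had 4 and 3 counts in untreated and 1046 and 784 in doubly treated cells, a ratio of 268 (95% counting interval 129.6 to 666). It stood at 44.6 and 40.8 CPM with IFN-γ alone and at 33.4 and 35.2 CPM with both, a difference of -0.31 on the log2 scale (adjusted p = 0.00424, edgeR quasi-likelihood test) that did not pass the fold threshold. HLA-DRA had no count without treatment and 7 and 4 counts with both, at least 1.82-fold higher against a floor of 3 counts a library. The protease CTSS, which trims the invariant chain, rose by 1.77, and HLA-DMB, a peptide exchange factor, fell by 1.59. CTSS was also called higher with AX-0085 alone, by 1.20. Of 7 genes tested, 4 rose and 1 fell, with a median of 1.77 that became 0.35 with the 2 genes without untreated counts held at their smallest fold.

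CD274, which encodes PD-L1 (chr9:5450503-5470566), had 3 and 5 counts in untreated and 14 and 10 in doubly treated cells, a ratio of 3.07 (95% counting interval 1.33 to 7.91). It was called higher, with a log2 change of 1.58 (standard error 0.57, adjusted p = 0.0294), but the call was lost without untreated replicate 1, where the change was 1.16, and without either doubly treated replicate. The level with both agents was 0.448 and 0.450 CPM against 5.49 and 6.47 CPM with IFN-γ alone. TNFRSF14, a ligand of the inhibitory receptor BTLA, had 1 and 3 counts in untreated and 106 and 90 in doubly treated cells, a ratio of 50.1 (95% counting interval 19.3 to 186). It was also higher with both than with IFN-γ alone, at 3.39 and 4.05 against 0.581 and 1.29 CPM. LGALS9, a ligand of the receptor TIM-3, rose by 2.15, while TNFSF9, a costimulatory ligand, fell by 1.44. Of 10 checkpoint ligands tested, 4 rose and 1 fell, and the median was 0.06.

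Sensors of foreign nucleic acid moved in both directions. TLR3, an endosomal receptor for double-stranded RNA, rose from 0.794 and 0.733 to 3.80 and 5.53 CPM, by 2.57. The DNA sensor IFI16 rose by 1.97 and the RNA helicase IFIH1 by 1.52. IFI16 was 1 of 2 genes of this list also called higher with AX-0085 alone, by 1.06. STING1, the adaptor of cytosolic DNA sensing, fell from 1.69 and 1.30 to 0.320 and 0.180 CPM, a log2 change of -2.51 (standard error 0.37, adjusted p = 7.49e-05). Here 3 rose and 1 fell of 12 genes tested.

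Chemokines that attract neutrophils and monocytes lay below the basal level. CXCL8 had 49 and 41 counts in untreated and 4 and 2 in doubly treated cells, a ratio of 0.0682 (95% counting interval 0.0244 to 0.154). CXCL5 fell from 149 and 129.8 to 22.4 and 21.1 CPM, CXCL1 from 2.71 and 2.40 to 0.352 and 0.270 CPM and CCL2 from 5.56 and 6.15 to 0.256 and 0.225 CPM. With IFN-γ alone CXCL8 and CXCL5 were above untreated cells, at 9.98 and 9.73 and 376 and 445 CPM. CCL2 was instead called lower with IFN-γ alone, at 1.74 and 1.73 CPM, and CXCL1 was not called, at 1.95 and 1.49 CPM. Of 19 cytokine genes tested, 6 fell and 1 rose, the latter being CXCL16, a membrane-bound chemokine, by 1.14. The median was -0.89 against 1.89 with IFN-γ alone and -0.76 with AX-0085 alone. IL11 was not called with both agents, at 19.7 and 19.5 CPM against 23.9 and 24.2 CPM, and at 477 and 479.7 CPM with IFN-γ alone.

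Targets of growth factor signalling through ERK fell or were not called. SPRY4, a feedback inhibitor of receptor tyrosine kinases, fell from 9.83 and 9.49 to 1.69 and 2.52 CPM, a log2 change of -2.23 (standard error 0.15, adjusted p = 6.16e-08). The AP-1 subunit FOSL1 went from 41.7 and 42.7 to 9.02 and 10.1 CPM, by -2.15, and DUSP6, a phosphatase of ERK, by -1.94. EPHA2, a receptor tyrosine kinase, changed by -1.87 and the transcription factor ETV5 by -1.65. Of 27 targets tested, 7 fell and 0 rose, with a median of -0.53 against 1.29 with IFN-γ and -0.72 with AX-0085 alone.

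Targets of the transcription factors SRF and YAP, which respond to actin and cell shape, also fell or were not called. ANKRD1 fell from 8.60 and 8.27 to 0.224 and 0.270 CPM, a log2 change of -5.09 (standard error 0.31, adjusted p = 2.19e-08). CCN2 fell from 18.0 and 18.3 to 2.78 and 2.74 CPM, and CCN1 changed by -1.31, AMOTL2 by -1.45 and the receptor tyrosine kinase AXL by -1.15. TNFRSF12A, the receptor of the cytokine TWEAK, changed by -1.68. Of 31 tested, 9 fell and 0 rose, while the cytoskeletal actin ACTG1 was not called, at 0.22. The median was -0.55 against 0.53 with IFN-γ and -0.69 with AX-0085 alone.

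Genes of mitosis and DNA replication lay below the basal level. All 56 mitosis genes and all 49 replication genes tested had a negative log2 change and an adjusted p under 0.05. Past the fold threshold, 37 and 34 fell, against 7.23% of all genes tested. The medians were -1.24 and -1.26.

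Among the mitotic regulators, CDC20, an activator of the anaphase-promoting complex, fell from 257 and 279 to 73.6 and 76.8 CPM, a log2 change of -1.83 (standard error 0.07, adjusted p = 5.45e-10). The spindle checkpoint protein MAD2L1 changed by -2.03, and the kinetochore subunits SPC24 and SPC25 by -2.08 and -2.03. The mitotic kinase CDK1 fell from 159 and 158 to 50.9 and 50.2 CPM, its partner CCNB1 by 1.30 and PLK1 by 1.15 on the log2 scale. TOP2A, at -1.004, was at the edge of the fold threshold and lost its call with DESeq2, with both other scalings and without untreated replicate 1, IFN-γ replicate 2 or doubly treated replicate 1 (at -0.92, -0.96 and -0.95). AURKB and the proliferation marker MKI67 were just inside it and were not called, at -0.996 and -0.96. Mitosis transcripts summed to 8959 and 8859.5 CPM in untreated and 4158 and 4183 CPM in doubly treated cells, with 3568 and 3678 CPM under AX-0085 and 6206 and 6129.7 CPM under IFN-γ alone.

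In DNA replication, RRM2, a subunit of ribonucleotide reductase, fell from 334 and 355 to 61.2 and 63.3 CPM, a log2 change of -2.47 (standard error 0.06, adjusted p = 1.11e-11). CDC45 and MCM10, which activate the replicative helicase, changed by -2.44 and -2.35, the helicase subunit MCM5 by -1.68, thymidine kinase TK1 by -2.12 and the clamp PCNA by -1.22. The licensing factor CDT1 was not called, at -0.26. The replication list summed to 6289.6 and 6549 CPM in untreated and 2578 and 2601 CPM in doubly treated cells, with 2951 and 2822 CPM under IFN-γ and 2983 and 2999 CPM under AX-0085 alone.

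Repair genes of homologous recombination and the Fanconi pathway followed, with 16 of 31 lower and a median of -1.02. FANCB changed by -1.85 and FANCD2 by -1.82, while BRCA1 lay just inside the fold threshold at -0.996. The damage kinase ATM was not called, at 0.43. In G1 control, 8 of 26 fell. They included E2F1, from 63.9 and 64.9 to 19.3 and 19.1 CPM, and cyclin D3 (CCND3), from 262 and 295 to 93.1 and 94.8 CPM. CCNE2, with 37.1% of its exon bases inside other genes, changed by -2.43, whereas CCND1 and MYC were not called, at -0.16 and 0.44. The single gene that rose was the CDK inhibitor CDKN1C, by 1.41.

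**Figure D4:**
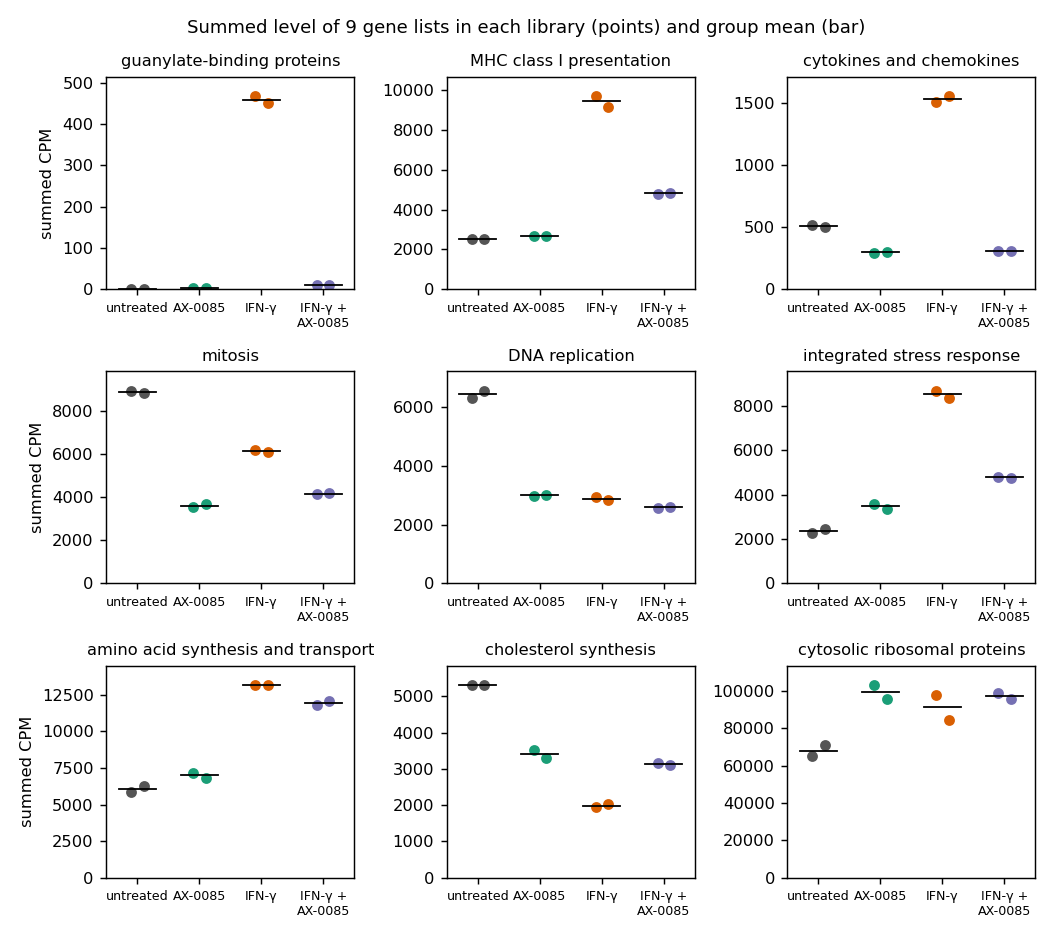
Summed CPM of 9 gene lists (vertical axes, linear from 0) in each library of the 4 groups (horizontal axes), with points for libraries and bars for group means. The mitosis sum was 8959 and 8859.5 CPM in untreated and 4158 and 4183 CPM in doubly treated cells, and the class I sum 2548 and 2537 and 4797 and 4850.2 CPM.

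Targets of p53 were mostly uncalled, with 3 higher and 1 lower of 22. CDKN1A, the p21 inhibitor, had levels of 62.6 and 70.8 CPM and 94.5 and 95.7 CPM and MDM2, the ligase of p53, a log2 change of 0.68. GADD45A rose by 1.73 and the kinase PLK2 fell by 2.05. Among cell death genes, 6 of 29 rose and 2 fell. The pro-apoptotic BH3-only genes HRK and BMF rose by 2.25 and 1.72, and the inflammatory caspase CASP1 had 2 and 2 counts in untreated and 25 and 19 in doubly treated cells, a ratio of 11.3 (95% counting interval 4.10 to 43.1). HRK stood highest with IFN-γ alone, at 6.28 and 6.87 CPM against 3.52 and 3.82 CPM with both. BMF stood highest with AX-0085 alone, at 10.0 and 10.6 CPM against 5.12 and 4.76 CPM with both. The anti-apoptotic genes BCL2L1, with 41.3% of its exon bases inside other genes, and BIRC3 fell by 1.30 and 1.55, and MCL1 was not called, at -0.35.

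In the integrated stress response, ATF4 is translated when amino acids run short or the endoplasmic reticulum is stressed. CHAC1 stood at 4.83 and 5.50 CPM in untreated and 65.7 and 68.7 CPM in doubly treated cells, a log2 change of 3.71 (standard error 0.11, adjusted p = 6.47e-11). SESN2, an inhibitor of mTORC1 signalling, rose from 10.3 and 10.8 to 77.1 and 75.7 CPM, and TRIB3, a pseudokinase induced by ATF4, from 79.0 and 90.5 to 498 and 479 CPM. DDIT3, the factor CHOP, rose by 2.31 and shares 39.6% of its exon bases with other genes. ATF3 rose by 1.73 and DDIT4, another inhibitor of mTORC1, by 1.87. ATF4 itself was below the fold threshold, at 0.86, as was the chaperone HSPA5, at 0.45. Of 20 genes tested, 11 rose and 0 fell, with a median of 1.07 against 2.19 with IFN-γ and 0.63 with AX-0085 alone.

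Of genes of amino acid synthesis and transport, 10 of 21 rose and 0 fell, with a median of 0.99. CTH, which makes cysteine from cystathionine, rose from 4.00 and 4.72 to 19.8 and 21.3 CPM, a log2 change of 2.24 (standard error 0.11, adjusted p = 3.30e-09). PSAT1 and PHGDH, of serine synthesis, rose by 1.81 and 1.73, CBS by 1.74 and SLC3A2 by 1.09. The cystine carrier SLC7A11, which pairs with SLC3A2, did not pass the test, at 88.7 and 84.4 CPM and 78.8 and 87.0 CPM. The list summed to 5846 and 6303 CPM in untreated and 11821 and 12071 CPM in doubly treated cells. Of the 20 cytosolic aminoacyl-tRNA synthetases, 4 rose, which were WARS1, SARS1 (1.47), AARS1 (1.39) and GARS1 (1.16).

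Most genes of cholesterol synthesis lay below the basal level. Of 29 tested, 26 had a negative log2 change, and 11 fell and 0 rose. The median was -0.83 against -1.59 with IFN-γ and -0.42 with AX-0085 alone. HMGCS1, which starts the mevalonate pathway and shares 37.7% of its exon bases with other genes, fell from 124 and 126 to 32.8 and 32.4 CPM, a log2 change of -1.94 (standard error 0.07, adjusted p = 4.21e-10). INSIG1, a sterol sensor, changed by -1.97, the sterol carrier STARD4 by -1.91 and the desaturase SCD by -1.15.

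In glucose handling, TXNIP, a suppressor of glucose uptake, had 1 and 4 counts in untreated and 651 and 510 in doubly treated cells, a ratio of 238 (95% counting interval 102 to 733). Its relative ARRDC4 rose by 3.62 and MLXIP, which encodes a sugar-responsive transcription factor of both, by 1.36. TXNIP was at 9.12 and 9.52 CPM with AX-0085 alone, 24.5 and 27.9 CPM with IFN-γ alone and 20.8 and 22.9 CPM with both. The glycolytic enzymes PGAM1, PFKP and LDHA fell, by 1.27, 1.23 and 1.21 on the log2 scale, and the glucose carrier SLC2A1 was not called, at 0.66. Of 27 targets of the antioxidant factor NRF2, 1 rose (ABCC3, by 1.20) and 1 fell (AKR1B1, by 1.53), while the abundant NQO1 was at 2129 and 2349 CPM and 1817 and 1796 CPM. Of 8 metallothionein and zinc transport genes, MT1F rose by 1.36, and the zinc transporters SLC39A10 and SLC30A3 and the metallothionein MT1A fell. The change of SLC30A3, -1.04, lost its call without IFN-γ replicate 2, where it lay just inside the fold threshold, and without doubly treated replicate 1, at -0.80.

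Among epithelial genes, secreted mucins rose. Of 18 airway and alveolar genes tested, 6 rose and 0 fell. MUC5B rose from 3.31 and 2.20 to 18.6 and 18.8 CPM, by 2.74, next to the rise of MUC5AC above. The surfactant gene SFTPC had 0 and 2 counts in untreated and 10 and 11 in doubly treated cells, a ratio of 10.7 (95% counting interval 2.63 to 94.5). SPDEF, a factor of goblet cells, lay at 9.96 and 10.1 CPM in untreated and 19.9 and 17.3 CPM in doubly treated cells, short of the fold threshold, and had 1 count in each IFN-γ library. The list summed to 530.5 and 476 CPM and 1443 and 1341 CPM, most of it MUC5AC. With AX-0085 alone it summed to 1308 and 1253 CPM, and with IFN-γ alone to 398 and 374 CPM.

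Keratins of simple epithelium did not move together. KRT18, KRT8 and KRT19 had log2 changes of -1.26, -0.73 and -0.85, of which only that of KRT18 passed the fold threshold, and KRT7 had one of 0.52. Of 10 keratins tested, 3 fell and 0 rose. The adhesion molecule CDH1 (E-cadherin) rose from 36.2 and 35.8 to 81.8 and 80.7 CPM, by 1.17, and desmoplakin (DSP) by 1.18. SNAI1, a repressor of CDH1, also rose, by 1.50, and the matrix protein SPARC fell by 2.82. VIM was not called, at 0.78. Of 25 genes of this list, 4 rose and 1 fell, with a median of 0.06.

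In the matrix, the laminin chains LAMB2 and LAMA3 rose by 1.77 and 1.15, while the hemidesmosomal collagen COL17A1 fell by 2.34. Of 27 such genes, 2 rose and 4 fell. Among 20 integrins and adhesion genes, 2 rose, L1CAM by 1.28 and ITGA7 by 1.02, and 4 fell, among them paxillin (PXN), by 1.26, and ITGB8, with 27 and 15 counts against 4 and 1. The call of ITGA7 was lost without untreated replicate 2, at 0.84, and without doubly treated replicate 1, at 0.95.

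Complement and coagulation genes changed in both directions, with 11 of 32 higher and 5 lower. SERPING1, the inhibitor of C1, had 2 and 0 counts in untreated and 104 and 93 in doubly treated cells, a ratio of 101 (95% counting interval 27.5 to 838). C4A and C4B, near-identical copies between which reads cannot be assigned with certainty, rose by 3.75 and 4.04. C3, the central component, rose from 54.9 and 53.4 to 120.2 and 124 CPM and the protease C1S from 71.1 and 75.9 to 229 and 240.4 CPM. Coagulation factor X (F10) had 3 and 2 counts against 50 and 51, and factor VII (F7) rose by 3.60. With IFN-γ alone F10 had 2 and 0 counts and F7 7 and 6, and F7 was at 2.23 and 3.12 CPM with AX-0085 alone. The plasminogen activator PLAT fell by 1.42 and the fibrinogen chain FGB by 1.56.

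Ribosomal protein transcripts had positive changes below the fold threshold. Of 68 cytosolic ribosomal protein genes, 0 were called by edgeR and 0 by DESeq2, since no change reached 2-fold. At an unadjusted p under 0.05, 63 were higher and 1 was lower, and the median log2 change was 0.47. By the adjusted p alone, 62 were higher and 1 was lower, against 4234 and 4339 of all 15066 genes tested. Their sum was 65336 and 70796 CPM in untreated and 99025 and 95535 CPM in doubly treated cells. The highest was RPL12, at 0.98, and the lowest RPS26, at -0.65. Ribosome biogenesis genes had a median of -0.24, with RRP9 the only one of 29 called, by -1.36, and nucleolin (NCL) at -0.54.

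No gene of the 13 encoded in mitochondria or the 29 nuclear genes of the respiratory chain was called by edgeR or DESeq2, with medians of -0.14 and -0.25. At an unadjusted p under 0.05 (edgeR), 0 of the former were called in either direction, and 1 of the latter was higher and 17 were lower. The adjusted p alone gave the same counts, against 4234 higher and 4339 lower of all 15066 genes tested. Of the 29 lysosome and autophagy genes, 4 rose, CTSS, the autophagy gene GABARAPL1 (1.51), the glucosidase GAA (1.11) and TFEB, a factor of lysosome genes (1.01). Without untreated replicate 1 the call of TFEB was lost, at 0.84. Of 16 polyadenylated histone genes, 5 rose, among them H2AC6, by 1.77, and 2 fell, among them H2AX, by 1.55.

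The genes that the study used as references in RT-PCR were not level. ACTB was at 5253 and 5641 CPM in untreated and 3627 and 3717 CPM in doubly treated cells, a log2 change of -0.57 (standard error 0.08, adjusted p = 3.26e-05). HPRT1 fell from 98.7 and 90.9 to 43.9 and 45.5 CPM, a change of -1.09 (standard error 0.07, adjusted p = 3.67e-08), although without untreated replicate 1 the change was -0.98 and no longer called. RPL13A was at 2431 and 2640.4 CPM and 5117 and 4804 CPM, a change of 0.97 (standard error 0.09, adjusted p = 1.18e-06) that stayed below the fold threshold, and that passed it without untreated replicate 2, IFN-γ replicate 2 or doubly treated replicate 2 (at most 1.03). These directions were the same under both other scalings. IRF1 cannot be assessed, being listed at 0 in all libraries.

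The doubly treated cells differed from each singly treated group too. Against IFN-γ alone 24.8% of the genes were called, against AX-0085 alone 3.52%, and the 2 comparisons share the doubly treated libraries. Some genes had a doubly treated level outside all 3 other groups, called in the same direction against each. They numbered 49 higher (0.325% of the genes tested) and 19 lower (0.126%). These counts depend on single libraries and on the tool. The count of higher genes was 30 without AX-0085 replicate 2. That of lower genes was 9 without the same library, and 12 without untreated replicate 1 or without IFN-γ replicate 2. DESeq2 gave 25 and 11, and a test against a 2-fold change 4 and 1.

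ASS1 was the most abundant of those genes, at 153 and 148 CPM in doubly treated and 15.4 and 15.8 CPM in untreated cells. AX-0085 alone gave 63.6 and 61.7 CPM and IFN-γ alone 32.6 and 31.9 CPM. ERBB3, a receptor of the EGFR family, stood at 31.3 and 27.9 CPM in doubly treated and 4.86 and 4.24 CPM in untreated cells, at 14.4 and 14.2 CPM after AX-0085 and 1.32 and 1.05 CPM after IFN-γ. It lay below the basal level with IFN-γ alone and above it in both groups given AX-0085. CTH rose to 19.8 and 21.3 CPM against 8.60 and 8.84 with AX-0085 and 7.71 and 7.52 with IFN-γ, and LINC01273 and the corepressor gene RCOR2 rose against untreated cells by 1.95 and 1.75. Of the genes that fell below all groups, 2 reached a mean log2 CPM of 2. RAB3B was at 4.25 and 3.60 CPM with both agents against 36.1 and 32.0 in untreated cells, 11.4 and 10.5 after AX-0085 and 34.4 and 35.0 after IFN-γ. GREM1, an antagonist of bone morphogenetic proteins, was at 6.04 and 7.51 CPM against 14.1 and 13.8 in untreated cells, 12.9 and 14.5 after AX-0085 and 26.0 and 29.4 after IFN-γ. Its call against untreated cells was lost without doubly treated replicate 1, at -0.85.

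**Figure D5:**
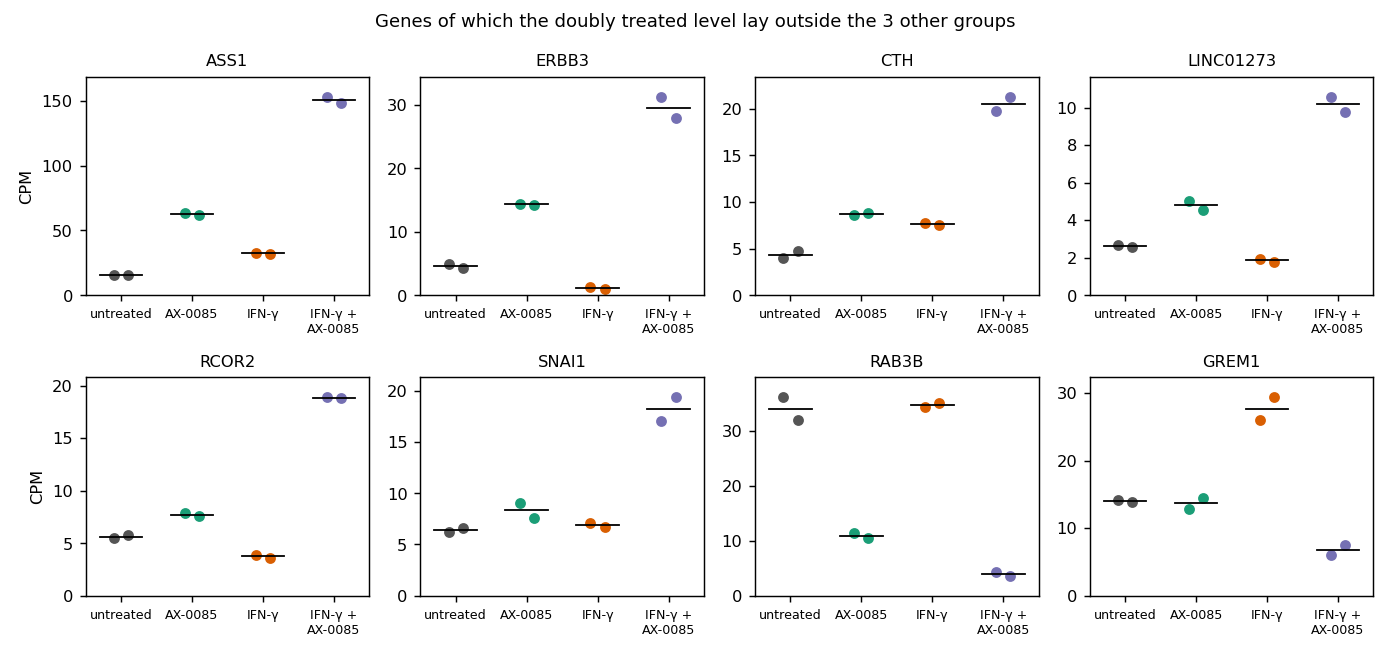
Level in CPM (vertical axes, linear from 0) of 8 genes in each library of the 4 groups (horizontal axes), with points for libraries and bars for group means. ASS1, ERBB3, CTH, LINC01273, RCOR2 and SNAI1 lie highest in doubly treated cells and RAB3B and GREM1 lowest, with no overlap with any other group.

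The change with both agents differed from the sum of the log2 changes with each agent for 18.6% of the genes tested, by the interaction term of the same model. For HLA-B that term was -1.30 (standard error 0.10), for CHAC1 -3.03 (standard error 0.14) and for ERBB3 3.02 (standard error 0.21). Of 216 named genes with a fit, 133 had a called interaction, 83 of them negative and 50 positive. Many were named for large changes in the same libraries, so their share cannot be compared with that of all genes. A negative term says that the doubly treated level lay below the sum, a positive one that it lay above it.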

How the data were processed

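RNA-seq was made from A549 cells in 4 groups of 2 libraries each. The authors deposited 1 table of raw read counts per gene for 60664 genes, and per the labels and the submitters' processing notes the reads went through bcl2fastq 2.20, Trim Galore 0.6.7, STAR 2.7.9a on GRCh38 and featureCounts. The annotation release, the strand setting and the treatment of reads that match several genes are not given in the sources used here, so values of overlapping genes and near-identical copies are uncertain. The groups came from the sample titles, and each table column was matched to its sample by name.

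Counts were tested as deposited with edgeR 4.0.16 (R 4.3.3). Genes passing filterByExpr (15066) were scaled with TMM and fitted with quasi-likelihood in 1 model over all 8 libraries, with a mean for each group, which left 4 residual degrees of freedom. A gene was called where p was under 0.05 after Benjamini-Hochberg adjustment and the change over 2-fold, the thresholds of the study's methods. The fit was tested on simulated counts with known log2 changes of 2 and 1.5 in genes with ample counts. It called 100% of these in the right direction, with 2 false calls among 14643 genes. This does not cover changes near 2-fold or genes with few counts. The simulated spread followed the trend with level and did not vary further by gene. No other gene changed in the simulation, whereas many did in the data, so the false calls hold for that setting only. Standard errors are the log2 change divided by the square root of F. Ratios of genes with few counts carry a 95% interval for counting error only. Gene positions and the share of exon bases inside other genes are from GENCODE 44, and upstream sequences from RefSeq.

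The genes named were CD274, JAK2, IRF1, GBP1 and the RT-PCR references, the 10 largest log2 changes and the 5 largest CPM changes in each direction, up to 3 called genes of each list, the 5 largest changes in each direction beyond all other groups, and genes of a list given for their role. A few genes that this rule or a role selected are not reported here. Genes given for their role were picked after values were seen. The comparison, the genes and the lists were chosen with earlier results of these data known. Alternatives covered the scaling, the filter on low counts, DESeq2 1.42.0, the thresholds, the samples fitted, a replicate block and leaving out each library.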

Additional observations from a re-analysis of the deposited data

Results flagged for a closer look

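Each result here is a difference of differences, the log2 change with AX-0085 after IFN-γ minus the log2 change with AX-0085 alone, that passed the adjusted p and fold thresholds of the edgeR interaction test. It was looked for among 31 genes, the fixed genes, the largest changes and the genes beyond all other groups, and 21 of them passed. Of all genes tested, 18.6% did. Most of the 31 were picked for large changes in libraries that also enter this difference, so their share cannot be compared with that of all genes.

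Among the interferon genes, the difference was -6.27 for GBP1, -4.49 for CD274, -1.30 for HLA-B and -1.09 for the pseudogene HLA-H. GBP1 and CD274 rest on few counts outside the IFN-γ libraries. Among the other genes that rose with both agents, it was -4.22 for NIBAN1, -3.03 for CHAC1, -2.66 for ADM2, -2.20 for S100P and -1.27 for TSC22D3. It was positive for ERBB3 at 3.02, RCOR2 at 1.88 and LINC01273 at 1.60.

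Among genes that fell with both agents, the difference was -2.02 for GREM1, -1.94 for CXCL5, -1.92 for MARCHF4, -1.89 for CCN2, -1.48 for RAB3B and -1.21 for EMP1. It was positive for KRT4 at 4.80, FAM111B at 3.25 and the long non-coding RNA ENSG00000279501 at 2.95.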

How the results depend on the processing

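Of 3624 values of 216 named genes under the alternatives, 3518 kept direction and side of the thresholds, 53 lost the call, 49 gained it and 4 reversed. The reversals were of uncalled changes with single libraries left out, where SLC7A11 ranged from -0.13 to 0.047 (0.014 without untreated replicate 1), JAK2 from -0.11 to 0.0030 and CIITA, with few counts, from -3.93 to 0.37. With at least 10 counts in every library, which tests fewer genes, 684 genes were higher and 701 lower, and 19 and 8 lay beyond all other groups. A test against a 2-fold change gave 448 and 470, with 4 and 1 beyond. The adjusted p alone gave 4234 and 4339, with 458 and 415 beyond. DESeq2, the tool of the study, gave 944 higher and 910 lower genes, with 25 and 11 beyond, and the cause was not tested. Leaving out single libraries gave 1085 to 1281 higher and 943 to 1134 lower genes, with 30 to 53 higher and 9 to 17 lower beyond all other groups. Replicate numbers mark no shared culture in the labels. Deviations of same-numbered untreated and doubly treated libraries correlated at 0.0148, and with a replicate block 1115 genes were higher and 1066 lower, 44 and 14 of them beyond all other groups, and all 216 named genes kept their side. The depth limits genes near 3 counts a library, such as CIITA, IRF9, RSAD2 and XAF1.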
